A study of Mus musculus with 6 samples.

Results

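Potassium channels are membrane proteins that let potassium ions leave or enter the cell along a selective pore. They set the resting potential of neurons, repolarise the membrane after an action potential and shape firing patterns. Pore-forming subunits assemble as tetramers, or as dimers in the tandem-pore-domain (K2P) family, and many of them work with auxiliary subunits that alter their gating or trafficking. The genes described here are those whose symbol starts with Kcn in the deposited expression table, without Kcnq1ot1, a long noncoding RNA. There are 96 of them among 24002 genes. By textbook classes, 77 encode pore-forming subunits and 17 auxiliary or regulatory proteins. The other 2, Kcnmb4os1 and Kcnd3os, are opposite-strand transcripts that share a channel gene's name.

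Polyadenylated RNA was sequenced in 3 replicates of R1 cells, a mouse embryonic stem cell line, at day 6 of retinoic acid treatment. The cells had been kept with 15% serum replacement and LIF at 1000 U/ml, a cytokine that maintains self-renewal, and then left in hanging drops for 48 h to form embryoid bodies. The labels give the retinoic acid dose as 0.5 mM for up to 6 days, and because micromolar doses are usual, the unit of that dose is uncertain. All samples of the series share this genotype and treatment, so only levels can be described and nothing can be said of how retinoic acid changed them. Accessible regions from 3 ATAC-seq samples of the same condition are placed in mm9 coordinates and were not used here, because the gene positions at hand are from another assembly.

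Of 6 markers of the labelled cell type, pluripotent stem cells, 4 were expressed at 1 FPKM or above in each replicate, and the list summed to 31.3, 35.2 and 39.3 FPKM in replicates 1, 2 and 3. Pou5f1 and Nanog, which define pluripotent cells, were below that level at 0.815 ± 0.0792 and 0.0879 ± 0.0318 FPKM (SD, n = 3), while Dppa5a, Klf4, Esrrb and Zfp42 averaged 15.6, 10.4, 6.17 and 2.14 FPKM. All 12 neuron markers and all 8 neural progenitor markers reached 1 FPKM in every replicate, as did all 21 markers of extraembryonic endoderm, the epithelium of the yolk sac. None of 8 cardiac and muscle markers and none of 7 endothelial and blood markers did. In a mixed culture a low level can come from few cells or from little RNA per cell, and these cannot be told apart. FPKM is a level scaled to transcript length and library size. Depth is not recorded. If the most common ratio of low values stands for equal fragment numbers, replicate 1 had 1.56 times the depth of replicate 2. By the same estimate it had 1.17 times the depth of replicate 3. Separate cultures are not named for the replicates, so their spread may be technical.

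Most potassium channel genes were low. A gene is called expressed here where each replicate reached 1 FPKM, and 33 of the 96 channel genes (34.4%) met this, beside 50.7% of all genes in the table. The median channel gene had 0.504 FPKM, beside 1.31 FPKM for all genes, and the expressed channel genes had a median of 2.54 FPKM, beside 10.01 FPKM for all expressed genes. Only 3 channel genes had a mean of at least 10 FPKM (3.13%, beside 25.5% of all genes), and none reached 100 FPKM. At the other end, 3 channel genes (3.13%) were listed at 0 in every replicate, beside 23.2% of all genes. Below 0.5 FPKM were 48 of the 96 channel genes, the 3 listed at 0 included, beside 10583 of all 24002 genes. Between 0.5 and 1 FPKM were 13 of the 96, beside 987 of all 24002. Among related families selected by symbol, 7 of 13 voltage-gated sodium channel genes were expressed, with a median of 1.497 FPKM. Of the 26 genes whose symbol starts with Cacn, the stem of voltage-gated calcium channel genes, 17 were expressed, with a median of 3.32 FPKM. The stem was taken whole, with Cacng genes such as Cacng4, the highest at 58.5 FPKM, so not every gene on it need encode a calcium channel subunit. With a single condition there is no contrast to test, and these shares are descriptions without a p-value.

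**Figure D1:**
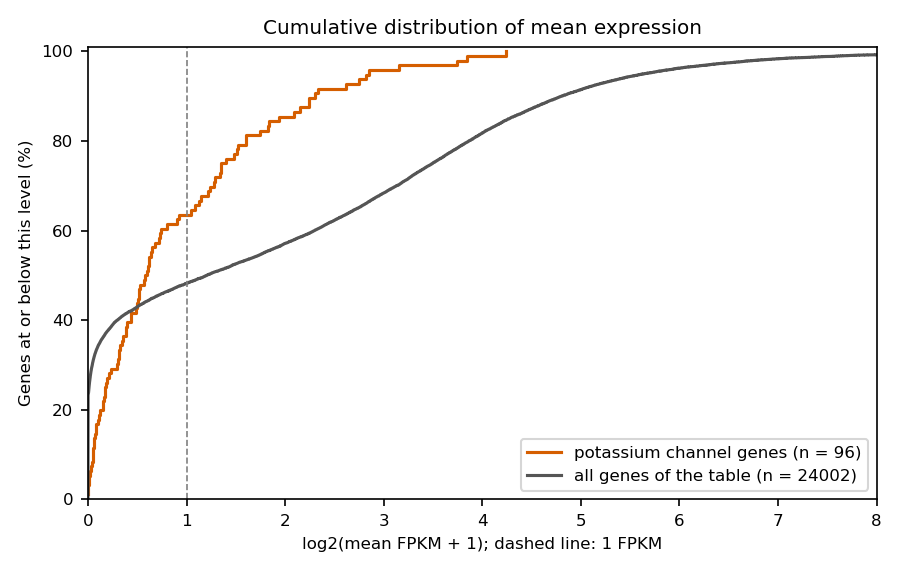
Cumulative share of genes (percent, y axis) at or below each mean level over the 3 replicates (log2(FPKM + 1), x axis) for potassium channel genes and for all genes of the table, with the 1 FPKM threshold dashed. The curve of the channel genes starts lower, since 3.13% of them and 23.2% of all genes are listed at 0, then crosses and stays above, since 34.4% of them and 50.7% of all genes were expressed.

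The highest level was that of an auxiliary gene. Kcnip1, which encodes a calcium-binding KChIP protein that modulates Kv4 channels, had 17.8, 18.6 and 17.4 FPKM in replicates 1, 2 and 3 (17.9 ± 0.637; SD, n = 3). Kcnh2, the ERG channel gene known from cardiac repolarisation and also used by neurons, had 12.5, 12.6 and 12.0 FPKM. The lowest value of Kcnip1 lay above the highest value of Kcnh2, so their order held in every replicate. The 10 highest genes made up 55.03 ± 0.373% of the summed FPKM of all channel genes. Further down, Kcnk5 stood above Kcnma1, the next in the order, without overlap. Ranked by mean, 35 genes averaged 1 FPKM or more, and 29 of the 34 pairs of neighbours had overlapping ranges, so most of the order from Kcnc1 downwards is not resolved by these replicates.

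**Figure D2:**
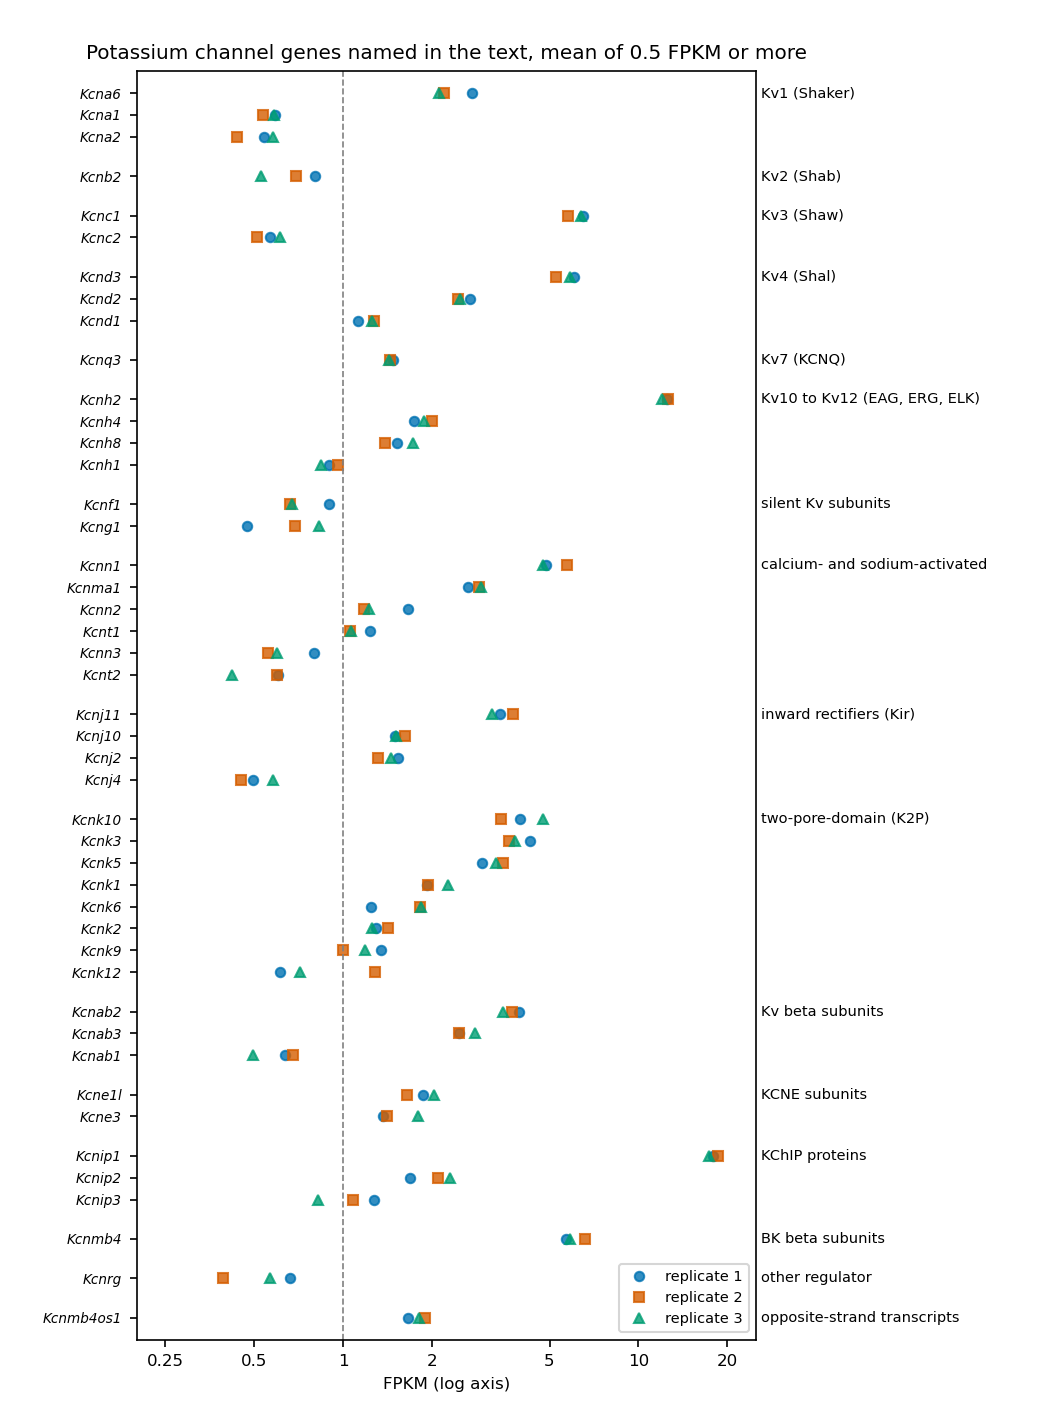
FPKM (log axis, x) of each potassium channel gene named in the text that averaged 0.5 FPKM or more, grouped by class (rows), with a point for each of the 3 replicates and the 1 FPKM threshold dashed. Kcnip1 and Kcnh2 stand apart above 10 FPKM, and the points of most other genes lie between 0.5 and 8.

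The Kv3 class gave 10.1 ± 0.345% of the summed channel FPKM (SD, n = 3), with 2 of 4 genes expressed. Kv3 channels open and close fast and allow high-frequency firing. Kcnc1 had 6.48, 5.77 and 6.39 FPKM. Far lower lay Kcnc2 with 0.564, 0.512 and 0.610 FPKM and Kcnc4 with a mean of 0.431 ± 0.0561 FPKM.

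All 3 Kv4 genes, which encode channels of the transient A-type current, were expressed. Kcnd3 had 6.04, 5.24 and 5.86 FPKM, Kcnd2 a mean of 2.54 ± 0.131 and Kcnd1 had 1.12, 1.27 and 1.25 FPKM. Their ranges did not overlap, and Kcnd3 was 2.25 ± 0.105 times Kcnd2 (SD, n = 3). The KChIP genes that encode their partners summed to 2.26 ± 0.181 times the summed FPKM of the Kv4 genes, and Kcnip1 gave 17.9 of their 21.3 FPKM by mean. Kcnip2 had 1.69, 2.10 and 2.31 FPKM and was lowest in replicate 1. Kcnip3, whose protein is also known as the transcriptional repressor DREAM, had 1.27, 1.08 and 0.824 FPKM and missed the threshold in replicate 3. Kcnip4 had a mean of 0.273 ± 0.0704 FPKM. Kcnip1 was 8.99 ± 1.54 times Kcnip2 and 3.16 ± 0.342 times Kcnd3. Another auxiliary subunit of Kv4 channels lies outside the Kcn symbols: Dpp6 stood at 9.33 ± 0.315 FPKM and its paralogue Dpp10 at 0.940, 1.14 and 0.928 FPKM.

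In the Kv7 class 2 of 5 genes were expressed. Kcnq3, a subunit of the neuronal M-channel that restrains repetitive firing, had 1.48, 1.44 and 1.43 FPKM, and its coefficient of variation of 1.71% was the smallest of the channel genes averaging 1 FPKM or more. Kcnq5 had a mean of 0.311 ± 0.0181 FPKM (SD, n = 3). Kcnq1, which is known from heart and epithelia, was listed at 0, 0.0363 and 0.0820 FPKM.

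The Kv10 to Kv12 class (EAG, ERG and ELK channels) had 3 of 8 genes expressed and, through Kcnh2, a share of 12.0 ± 0.0918% of the summed channel FPKM (SD, n = 3). The ELK genes Kcnh4 and Kcnh8 followed with 1.73, 2.00 and 1.88 FPKM and with 1.52, 1.39 and 1.73 FPKM. Kcnh1, the EAG channel gene, had 0.899, 0.962 and 0.841 FPKM and stayed just under the threshold. The means of Kcnh3, Kcnh7, Kcnh5 and Kcnh6 lay between 0.242 and 0.444 FPKM.

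In the Kv1 (Shaker) class, 1 of 8 genes was expressed. Kv1 channels sit along mature axons and limit excitability. Kcna6 had 2.72, 2.20 and 2.11 FPKM, highest in replicate 1, and was 4.12 ± 0.507 times Kcna1 (SD, n = 3). Kcna1 had 0.587, 0.536 and 0.583 FPKM and Kcna2, its partner in axonal channels, had 0.541, 0.439 and 0.580 FPKM, with overlapping ranges. Kcna4, Kcna3 and Kcna5 had means between 0.229 and 0.400 FPKM, Kcna7 a mean of 0.0557 ± 0.0242, and Kcna10 was listed at 0 in every replicate. The cytoplasmic beta subunits of Kv1 channels were expressed in part. Kcnab2 had 3.95, 3.72 and 3.48 FPKM, 1.60 ± 0.129 times Kcna6, Kcnab3 a mean of 2.58 ± 0.183, and Kcnab1 had 0.634, 0.679 and 0.497 FPKM.

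Kcnb2, a gene of the Kv2 class that carries delayed rectifier currents, had 0.805, 0.693 and 0.529 FPKM. None of the 10 silent Kv genes was expressed. These encode subunits that form no channel alone and join Kv2 subunits, and the highest of them was Kcnf1 with 0.898, 0.660 and 0.674 FPKM. Kcng1 had 0.472, 0.687 and 0.831 FPKM and the means of the other 8 lay between 0.0278 and 0.498 FPKM. Kcnrg, whose protein interferes with the assembly of Kv tetramers, had 0.664, 0.392 and 0.567 FPKM.

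In the class named for calcium- and sodium-activated channels, which groups genes by family, 4 of 8 genes were expressed. Kcnn1, a small-conductance (SK) channel gene, had 4.88, 5.74 and 4.74 FPKM. Kcnn2, another SK gene, had 1.66, 1.18 and 1.23 FPKM, high in replicate 1, and Kcnn3 had 0.801, 0.558 and 0.596 FPKM. Kcnma1, the gene of the large-conductance BK channel, had a mean of 2.82 ± 0.148 FPKM (SD, n = 3). Its neuronal auxiliary gene Kcnmb4 had 5.67, 6.60 and 5.88 FPKM, 2.15 ± 0.137 times Kcnma1, with no overlap. The other BK beta genes were low: Kcnmb2 stood at 0.307 ± 0.0317 FPKM, Kcnmb1 of smooth muscle at 0.0405 ± 0.0320, and Kcnmb3 was listed at 0. The sodium-activated channel genes Kcnt1 and Kcnt2 had 1.24, 1.05 and 1.06 FPKM and 0.602, 0.598 and 0.420 FPKM. Kcnu1, known from sperm, and Kcnn4, known from blood cells, had means of 0.128 ± 0.0174 and 0.142 ± 0.0783 FPKM.

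Inward rectifiers pass potassium more easily into the cell than out and hold the membrane near rest, and 3 of their 15 genes were expressed. Kcnj11, the pore gene of ATP-sensitive channels, had 3.40, 3.76 and 3.19 FPKM, while its paralogue Kcnj8 had a mean of 0.0451 ± 0.0170 FPKM (SD, n = 3). The regulatory sulphonylurea receptor genes of these channels were unequal in the same way, with Abcc8 at 1.64 ± 0.0436 FPKM, 0.478 ± 0.0278 times Kcnj11, and Abcc9 at 0.0112 ± 0.00932 FPKM. Kcnj10, known from glia, had 1.504, 1.62 and 1.51 FPKM and Kcnj2, a classical strong rectifier, had 1.53, 1.31 and 1.45 FPKM, with overlapping ranges. Of 8 glial markers 7 were expressed, with a summed level of 109 to 116 FPKM and Aqp4, a marker of mature astrocytes, at 0.0496. Whether they and Kcnj10 come from the same cells was not tested. Kcnj4 had 0.495, 0.453 and 0.582 FPKM. The G protein-gated channel genes were all below the threshold, with Kcnj3 at 0.680, 0.248 and 0.533 FPKM, Kcnj9 at a mean of 0.316 ± 0.0739, Kcnj6 at 0.0852 ± 0.0587 and Kcnj5 at 0.0325 ± 0.0344. The means of Kcnj12, Kcnj14, Kcnj16, Kcnj13, Kcnj15 and Kcnj1 lay between 0.00836 and 0.421 FPKM.

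The K2P genes, which encode leak channels, gave 12.5 ± 0.580% of the summed channel FPKM (SD, n = 3), close to that of the Kv10 to Kv12 class, with 6 of 14 genes expressed. Their values are spread over several genes of like level. Kcnk10, a mechanosensitive TREK channel gene, had 3.98, 3.43 and 4.74 FPKM, and Kcnk3 and Kcnk5, acid-sensitive TASK channel genes, had means of 3.92 ± 0.341 and 3.24 ± 0.255 FPKM. Kcnk1 stood at 2.05 ± 0.189 FPKM. Kcnk6 had 1.25, 1.82 and 1.83 FPKM and Kcnk2, the other expressed TREK gene, had 1.29, 1.42 and 1.26 FPKM. Kcnk9, a further TASK gene, had 1.35, 0.999974 and 1.19 FPKM and so missed the threshold narrowly, in replicate 2 alone. Kcnk12 had 0.610, 1.28 and 0.717 FPKM, highest in replicate 2. The other K2P genes were at 0.176 FPKM or less by mean, and Kcnk15 was listed at 0.

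**Figure D3:**
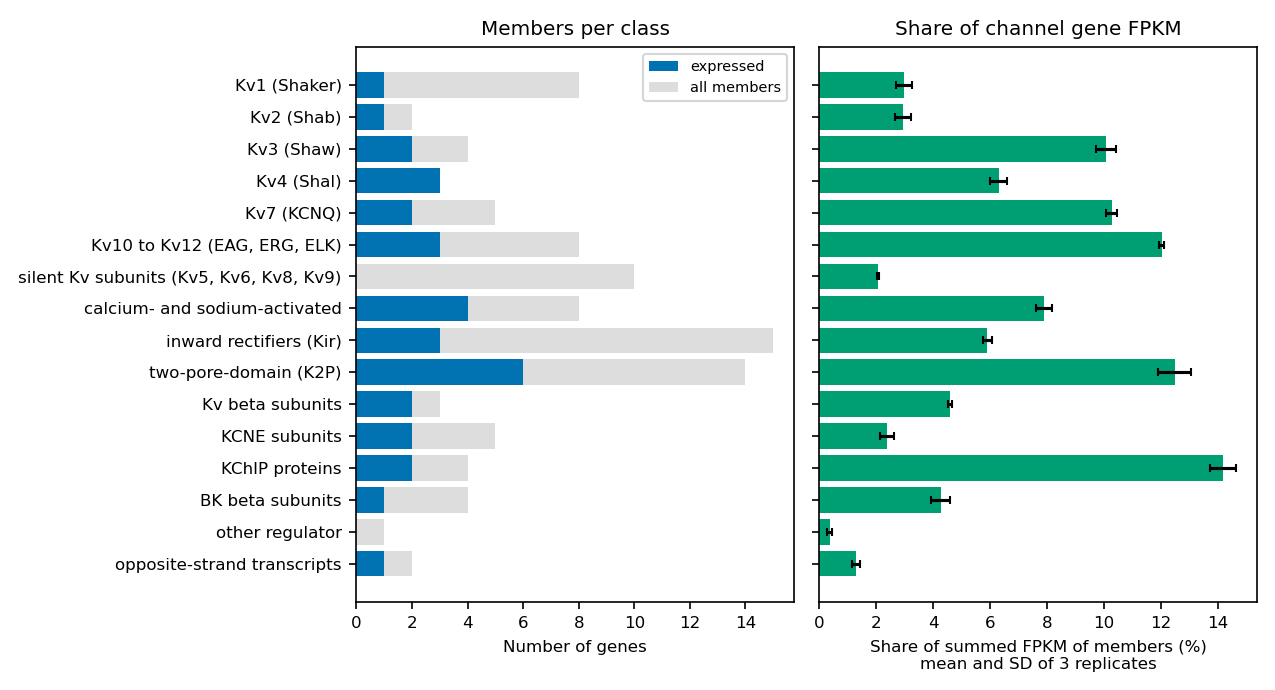
Left, the number of genes per class (grey) and the number expressed (blue). Right, the share of each class in the summed FPKM of the potassium channel genes (percent, bars are means and error bars SD of 3 replicates), with KChIP proteins at 14.2% and the silent Kv subunits, none expressed, at 2.06%.

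Of the 5 KCNE genes, whose small membrane proteins modify Kv7, ERG and other channels, 2 were expressed. Kcne1l, also known as Kcne5, had 1.87, 1.65 and 2.04 FPKM and Kcne3 had 1.37, 1.41 and 1.79 FPKM. Kcne1, Kcne2 and Kcne4 had means between 0.0243 and 0.115 FPKM. Taken by role, 25 of 77 pore-forming genes (32.5%) and 7 of 17 auxiliary genes (41.2%) were expressed, beside 50.7% of all genes. Their medians were 0.487 and 0.603 FPKM. The 77 include the 10 silent Kv genes, none of which was expressed. The difference between the shares of pore-forming and auxiliary genes was not tested.

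Whether counting used strand is not known from the labels, so reads of overlapping genes may be split between them. In the RefSeq annotation, 19 of the 96 genes overlap the span of another gene of the table. The share over all genes was not counted, so nothing is read from this number. Kcnmb4os1 had 1.65, 1.89 and 1.81 FPKM, and Kcnmb4 was 3.39 ± 0.119 times as high (SD, n = 3). Kcnd3os had 0.0766, 0.120 and 0.271 FPKM. Among low channel genes that overlap a higher gene are Kcnh3 (0.444 FPKM by mean, with Mcrs1 at 17.8), Kcnrg (0.541, with Trim13 at 18.4), Kcnj13 (0.0606, with Gigyf2 at 14.7) and Kcnmb1 (0.0405, with Kcnip1 at 17.9). Kcnmb3, listed at 0, overlaps Pik3ca at 10.5, and Kcnk7 (0.0387) overlaps Ehbp1l1 at 1.11. Overlap was taken from whole gene spans, and whether exons overlap was not examined. The low values of these genes may be affected, but this was not tested.

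Genes of potassium handling outside the Kcn symbols were mostly expressed, at 29 of 35 genes with a median of 7.02 FPKM. This list holds widely used genes, so its share says nothing about the channel genes. Of the beta subunit genes of the sodium-potassium pump, which builds the potassium gradient, Atp1b1 stood at 56.6 ± 4.58 FPKM (SD, n = 3), Atp1b3 at 50.9 ± 1.45 and Atp1b2 at 12.4 ± 0.259. Among genes of scaffold, anchor and adhesion proteins of the axon, several of which cluster Kv channels, Dlg4 stood at 49.4 ± 0.367 FPKM, Ank2 at 47.6 ± 2.20, Ank3 at 35.1 ± 0.597 and Cntn2 at 11.8 ± 0.414 FPKM. Vapa and Vapb, whose proteins anchor Kv2 channels at contacts with the endoplasmic reticulum, stood at 92.4 ± 2.49 and 16.2 ± 0.616, and Amigo1, a Kv2 auxiliary gene, at 4.69 ± 0.0234. Of the hyperpolarisation-activated channel genes, Hcn3 stood at 10.6 ± 0.273, Hcn2 at 9.88 ± 0.117 and Hcn4 at 8.05 ± 0.185. Slc12a5, the chloride extruder of mature neurons, stood at 14.6 ± 0.818 and was 2.15 ± 0.222 times Slc12a2, its opposing importer. Among those not expressed were Dpp10, Lgi1, Abcc9, Lrrc26 and Lrrc52.

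Between replicates, the channel genes varied in no common direction. Among the 35 averaging 1 FPKM or more the median coefficient of variation was 7.86%, beside 4.73% for all genes with such an average and 5.67% for the 8668 genes within the same range of levels. The genes in that range were higher, however, with a median of 6.27 FPKM, beside 2.54 FPKM for expressed channel genes, so the spread is not compared at equal level. By the SD of log2(FPKM + 1), the most variable were Kcnk6, Kcnk10, Kcnip3, Kcnn2 and Kcnip2, with SDs between 0.15 and 0.19. Kcnk6 and Kcnip2 were lowest in replicate 1, Kcnn2 and Kcnip3 were highest there, and Kcnk10 was highest in replicate 3. In all, 12 of 35 channel genes had their lowest value in replicate 1, beside 36.5% of all genes, and 14 had their highest there, beside 36.3%, so both shares (34.3% and 40.0%) lay near those of all genes. Their median deviation from their own means in replicate 1 was -0.01 (log2). Of the 21 extraembryonic endoderm markers, 20 were lower in replicate 1, with a median deviation of -0.32, and their summed level was 609, 849 and 854 FPKM in replicates 1, 2 and 3, with none at 0. These markers were chosen with earlier results of these data known, so they are no independent comparison. The 12 neuron markers summed to 3025, 2902 and 2880 FPKM. Kcnk6 and Kcnip2 had the lowest deviations of the channel genes in replicate 1, -0.22 and -0.17, and the part of endoderm cells in them was not tested.

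**Figure D4:**
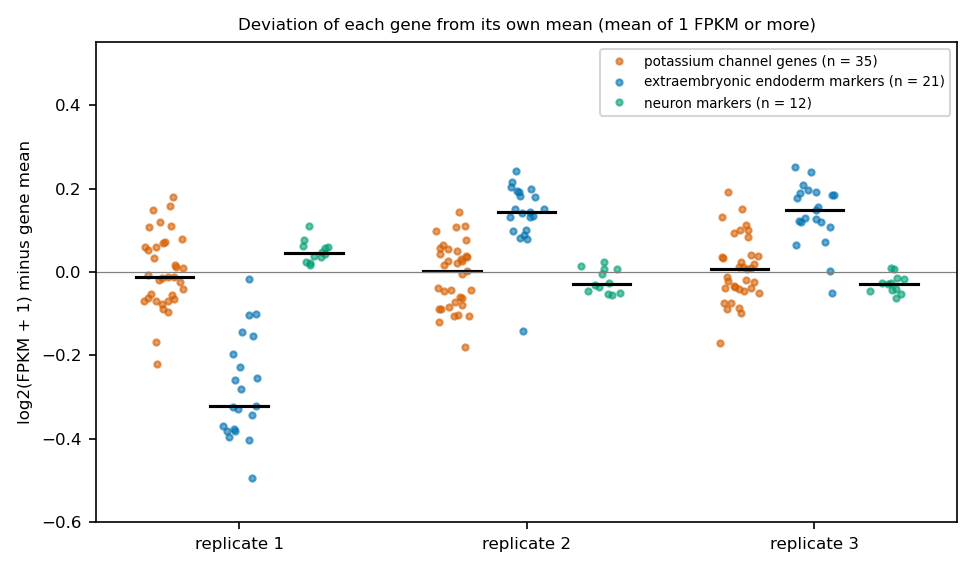
Deviation of each gene averaging 1 FPKM or more from its own mean over the replicates (log2(FPKM + 1), y axis) in each replicate (x axis), for potassium channel genes, extraembryonic endoderm markers and neuron markers, with medians as bars. In replicate 1 the endoderm markers, chosen with earlier results of these data known, lie at a median of -0.32 and the channel genes at -0.01.

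Several channel genes lie side by side in the genome. In RefSeq's annotation of GRCm38, 10 pairs of channel genes have no protein-coding gene starting between them, and 9 of these pairs belong to a single class. In 5 pairs 1 gene was expressed, in 5 none was, and in 0 were both. With 34.4% of channel genes expressed, few pairs with both would be found in any case, and some pairs share a gene, so nothing is read from this count. On chromosome 6, Kcna6 stood at 2.35 ± 0.331 FPKM beside Kcna1 at 0.569 ± 0.0285 and Kcna5 at 0.229 ± 0.0590 (SD, n = 3). On chromosome 11, Kcnj2 stood at 1.43 ± 0.112 beside Kcnj16 at 0.115 ± 0.0313, and on chromosome 1, Kcnj10 at 1.55 ± 0.0675 beside Kcnj9 at 0.316 ± 0.0739. Kcnk5 at 3.24 ± 0.255 lies next to Kcnk16, which had 0.0508, 0.477 and 0 FPKM, on chromosome 14. Of the Kcna2, Kcna3 and Kcna10 group on chromosome 3 none was expressed.

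Promoters of expressed channel genes had a higher median density of CpG dinucleotides than those of channel genes that were not expressed, and the same was seen over all genes. Promoters rich in CpG are common at widely expressed and developmental genes. RefSeq promoter windows of 300 bases (250 before to 50 after the start, GRCm38.p6) were matched for 70 of the 96 genes by symbol. These were 21 of the 33 expressed and 49 of the 63 other genes, so expressed genes were matched less often. Ratios were averaged over the windows of a gene. The observed over expected CpG ratio had a median of 0.589 in 21 expressed channel genes and 0.408 in 49 others. Over all matched genes the medians were 0.772 in 9181 expressed genes and 0.235 in 7644 others, a wider gap than within the channel genes. A ratio of at least 0.6 was found in 9 of the 21 expressed (42.9%) and 12 of the 49 other channel genes (24.5%), beside 75.5% of all expressed and 14.7% of all other genes. Where a gene has a single window, the medians were 0.663 in 15 expressed and 0.411 in 40 other channel genes. A ratio of at least 0.6 was found in 60% and 25% of these. No test was made of these differences.

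The windows below are those of the highest-level gene with a single window, of the highest and the lowest CpG ratio among such genes, and of the highest ratio among such genes below 0.1 FPKM. CpG dinucleotides are in capitals, and each is written in the direction of transcription, 5′ to 3′, from RefSeq's GRCm38.p6. Kcnh2 (chr5:24329542-24329841, minus strand, 19 CpG, ratio 0.555) had 12.4 FPKM and Kcnmb4 (chr10:116473474-116473773, minus strand, 48 CpG, ratio 1.04) had 6.05 FPKM. Kcng3 (chr17:83631846-83632145, minus strand, 49 CpG, ratio 0.991), a silent Kv gene, had 0.0720 FPKM in spite of a window as dense as that of Kcnmb4. Kcna10 (chr3:107182893-107183192, plus strand) held 0 CpG and was listed at 0 FPKM.
Kcnh2: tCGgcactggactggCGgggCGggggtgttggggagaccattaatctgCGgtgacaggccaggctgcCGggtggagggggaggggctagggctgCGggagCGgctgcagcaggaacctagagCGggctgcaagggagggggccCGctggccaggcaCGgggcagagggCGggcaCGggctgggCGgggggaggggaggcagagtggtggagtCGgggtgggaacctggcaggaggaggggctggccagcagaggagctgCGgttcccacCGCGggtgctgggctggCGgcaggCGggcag
Kcnmb4: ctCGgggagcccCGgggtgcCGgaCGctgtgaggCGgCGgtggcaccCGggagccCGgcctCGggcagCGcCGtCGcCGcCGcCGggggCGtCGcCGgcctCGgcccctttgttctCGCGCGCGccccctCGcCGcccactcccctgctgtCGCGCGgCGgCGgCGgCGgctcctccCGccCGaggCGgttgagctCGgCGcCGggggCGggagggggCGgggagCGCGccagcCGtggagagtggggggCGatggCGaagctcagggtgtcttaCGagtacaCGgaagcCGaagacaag
Kcng3: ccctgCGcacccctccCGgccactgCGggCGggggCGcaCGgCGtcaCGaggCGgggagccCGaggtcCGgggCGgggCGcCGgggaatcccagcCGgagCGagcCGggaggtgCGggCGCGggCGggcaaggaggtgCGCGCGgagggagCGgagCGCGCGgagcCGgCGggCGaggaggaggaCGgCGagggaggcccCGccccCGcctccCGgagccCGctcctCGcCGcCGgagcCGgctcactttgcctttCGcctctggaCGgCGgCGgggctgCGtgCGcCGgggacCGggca
Kcna10: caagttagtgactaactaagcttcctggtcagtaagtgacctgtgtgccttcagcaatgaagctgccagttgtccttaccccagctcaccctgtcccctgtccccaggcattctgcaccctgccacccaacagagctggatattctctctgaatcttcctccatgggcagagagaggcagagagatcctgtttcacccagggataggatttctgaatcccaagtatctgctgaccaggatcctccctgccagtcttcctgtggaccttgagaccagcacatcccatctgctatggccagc

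**Figure D5:**
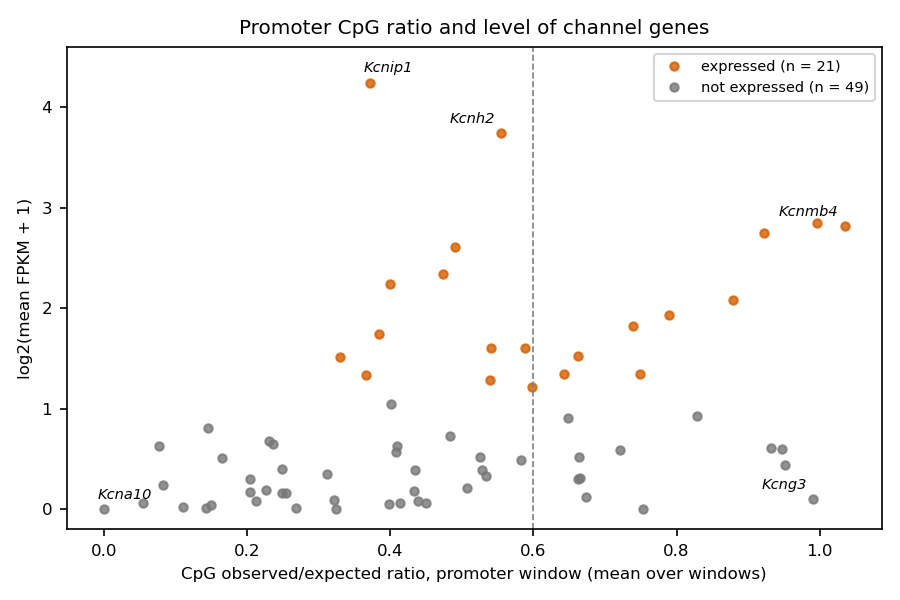
Mean level (log2(FPKM + 1), y axis) against the observed over expected CpG ratio of the promoter window (x axis, dashed line at 0.6) for 21 expressed and 49 other potassium channel genes. The expressed genes lie between 0.330 and 1.04 and the others between Kcna10 at 0 and Kcng3 at 0.991, and Kcnip1 (ratio 0.372) is the highest gene.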

How the data were processed

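The authors deposited a table with a column for each of the 3 RNA-seq replicates and no stated unit. Its values were read as FPKM because Cufflinks is named, with Bowtie and the build mm9 and without versions, in the submitters' processing notes, and because the numbers look like its output. Columns were matched to samples by title. No source states any further scaling between libraries.

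Means, SDs, ratios and the SD of log2(FPKM + 1) were computed with pandas 2.3.3 under Python 3.11.15. Adding 1 shrinks the log2 spread of genes near 0. An exact 0 can be a failed estimate, so such genes are only said to be listed at 0. Relative depth was the most common ratio of values between 0.001 and 0.1 FPKM in both libraries, which assumes equal fragment numbers. The calculation was checked on simulated whole fragments with the same gene lengths in both libraries. That simulation has the assumption built in, so it cannot test whether the assumption holds for these data. Absolute depth is unknown, so no counting interval is given.

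The channel genes, classes, partner genes and markers were chosen with earlier results of these data known. Values per replicate are given for genes averaging 10 FPKM or more, the highest of each class, the 5 most variable of those averaging 1 FPKM or more, and those between 0.5 and 2 FPKM; some genes that meet this rule are not reported here singly but stay in all counts. CpG ratios are CpG count times length over the product of C and G counts. All 96 symbols matched RefSeq, which gave names, neighbours and promoters of GRCm38 only. Alternatives are given at the end.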

Additional observations from a re-analysis of the deposited data

How the results depend on the processing

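The number of channel genes expressed ranged from 33 to 34 when a replicate was left out, was 42 at a threshold of 0.5 FPKM (beside 54.4% of all genes), 35 with the threshold set on the mean (51.8%) and 33 after upper quartile scaling (50.7%). At a threshold of 5 FPKM it was 7, beside 35.7% of all genes, and 6 of 16 classes held an expressed gene in place of 14. Among genes above 0 in at least 1 replicate, 33 of 93 channel genes (35.5%) were expressed, beside 66.0% of all genes. The median channel gene level ranged from 0.484 to 0.525 FPKM when a replicate was left out. Without the filter on low values, 26 of 96 channel genes were lower in replicate 1, beside 26.4% of all genes, and among those averaging 5 FPKM or more 2 of 8 were, beside 34.7%. Of 112 class counts under these alternatives, 97 stayed within 1.5 times, with counts of 0 under both settings taken as unchanged. The other 15 all moved at the thresholds of 0.5 or 5 FPKM, most of them at 5 FPKM. With a pseudocount of 0.1 the median SD of channel genes averaging 1 FPKM or more was 0.11 (log2), beside 0.09. Values below 0.1 FPKM may rest on few fragments, by estimated relative depth on fewest in replicate 2.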

Other observations

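At the lowest levels, values of some channel genes differed between libraries by the ratio taken for equal fragment numbers. Most pairs of low channel gene values did not. Over all genes, 256 of 1170 pairs of low values lay at that ratio for replicates 1 and 3, and 253 of 952 for replicates 3 and 2. For replicates 1 and 2 these were 252 of 1046, and no channel gene matched there. Such matches are thus common over all genes, and nothing particular to the channel genes is read from them. Kcne1, Kcnj1, Kcnj8, Kcna7 and Kcnj15 are given because each matched for a pair of libraries. Kcne1 had 0.0336 FPKM in replicate 1, 0 in replicate 2 and 0.0394 in replicate 3, and Kcnj1 had 0.0115, 0 and 0.0135. Kcnj8 had 0.0503, 0.0261 and 0.0590 FPKM. In Kcne1, Kcnj1 and Kcnj8 replicate 3 was 1.17 times replicate 1, the ratio taken for equal fragment numbers in those libraries. Kcna7 and Kcnj15 were 1.33 times as high in replicate 2 as in replicate 3, which is likewise the ratio for equal fragment numbers. Between those libraries these genes can thus not be ordered at this depth. Kcnk16 (0.0508, 0.477 and 0 FPKM) and Kcnj5 (0.00767, 0.0717 and 0.0180 FPKM) were highest in replicate 2, the shallowest library by this estimate. Other low genes were highest elsewhere, such as Kcnk13 in replicate 3 and Kcnk4 in replicate 1, so nothing is read from this.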
